A study of Bos taurus with 2 samples.

Results

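The 43 genes described here make and run the lysosome, the acidic compartment in which cells break down proteins, sugars, lipids and engulfed material. Their transcripts were read in Holstein cattle (Bos taurus), in total RNA of whole blood, by an Agilent oligonucleotide array for that species. A specimen labelled low feed efficiency and a specimen labelled high feed efficiency were hybridised to 1 array each. The series title ties the study to residual feed intake, the feed eaten beyond what size and production require, and a high residual feed intake goes with a low feed efficiency. The labels give no age, treatment or number of animals for either specimen, and both arrays lay on 1 slide and were read in 1 scan. The list of 43 genes was drawn up with earlier results of these data known. Probes were then taken by name, without regard to signal. Every probe of the array whose gene name, or whose RefSeq transcript, belongs to 1 of the 43 genes was kept. This gave 106 probes, against 16888 named genes on the whole array.

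Blood phagocytes are rich in lysosomes. Most lysosomal enzymes are made with signals that send them to the compartment and work best at low pH. The vacuolar ATPase, a rotary proton pump, keeps that pH low by spending ATP. Its V1 part in the cytosol splits ATP, and its V0 part in the membrane carries the protons. Heavily glycosylated membrane proteins line the inside of the compartment, and carriers such as NPC1 and NPC2 hand cholesterol back to the cell. Whole blood is a mixture of cells, so in these data fewer cells of a type and less RNA per cell cannot be told apart.

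Every level below is a normalised intensity: the high feed efficiency array as scanned, and the low feed efficiency array multiplied by 0.849, the factor that sets the median difference of all genes to 0. A difference is the log2 level in low feed efficiency minus that in high feed efficiency on that scale, so a value below 0 means lower in low feed efficiency than the median gene. Each gene is represented by the brightest of its probes that lay above background on both arrays. The figure of member differences shows the other measured probes, and the text gives many of them. With 1 array per group there is no replicate check and no p-value. The only measured error is technical: across repeated spots of 1 probe the difference had an SD of 0.10 at bright signal (12 probes) and 0.23 at dim signal (24 probes). The number of arrays limits the precision further. Scaling on spike-in controls in place of the median gene would add 0.30 to every difference, so each direction below is relative to all genes.

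Lysosomal genes differed little between the arrays. Of the 43 members 39 were measured on both arrays, by 90 probes, and their median difference was -0.06, beside 0 over the 10339 genes measured. None of the 39 was at least 1.5-fold higher in low feed efficiency, where 3.29% of all genes were, and 2 were at least 1.5-fold lower, CTSK and TPP1, where 2.62% of all genes were. No member was 2-fold apart in either direction (0.416% of all genes were higher and 0.484% lower). In the authors' deposited table, read as an alternative, CTSK was past 2-fold, at -1.07. With spike-in scaling 1 member was 1.5-fold higher and 1 was lower, beside 1680 and 78 of all genes in place of 340 and 271. Of the 39 members 24 lay below 0 and 15 above, and their range ran from -0.95 to 0.31.

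Members were brighter than most genes, and bright genes as a whole lay slightly below 0. The brightest 25% of genes had a median of -0.07, with 62.6% of them below 0, and the dimmest 25% had 0.03. Of the measured members 23 belonged to the brightest 25%, with a median of -0.06 and 14 of 23 below 0. Within the brightest 25%, the members' median and share below 0 were thus close to those of all genes there. Over all measured members, bright or not, the share below 0 was 61.5%. Members outside the brightest 25% were not set against genes of like signal, so the part of brightness in that share was not tested. The plot of differences against signal shows the members among the other genes.

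**Figure D1:**
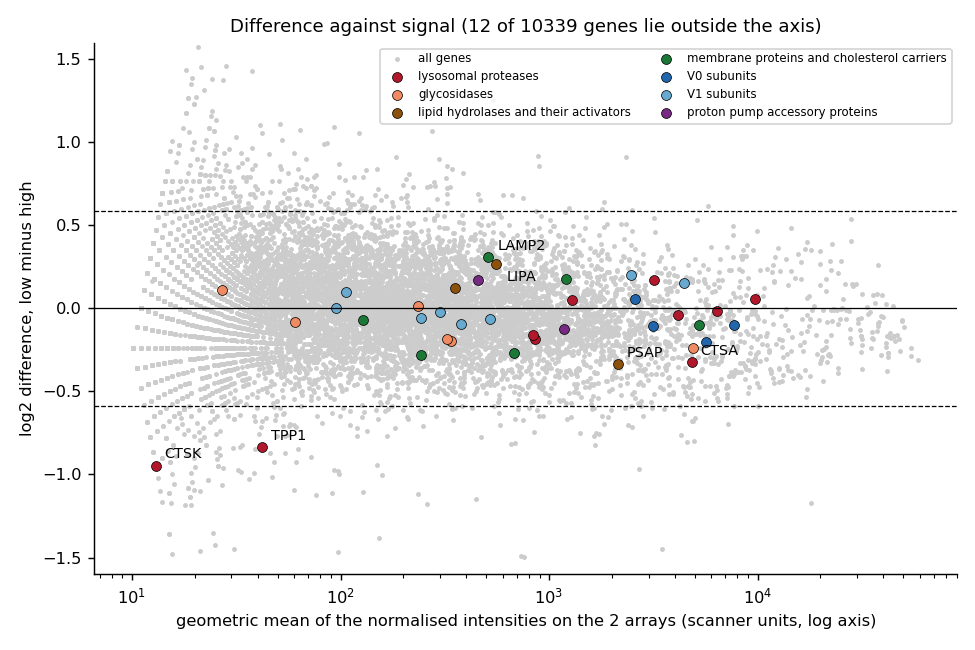
Log2 difference, low minus high (vertical axis), against the geometric mean intensity on the 2 arrays (horizontal log axis), with all genes in grey and measured lysosomal genes coloured by class; dashed lines mark 1.5-fold. CTSK and TPP1 alone lie below the lower dashed line among the members, both at low signal, and 12 of 10339 genes lie outside the axis.

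The proteases held the only members past 1.5-fold, and the other measured proteases ran from -0.32 (CTSA) to 0.17 (CTSZ). Of 11 proteases 10 were measured, 3 above and 7 below 0, with a median of -0.10. Their 25 measured probes lay above 0 for 8 and below for 17. CTSD encodes the main aspartic protease of the lysosome and read 9866 in low against 9470 in high feed efficiency, which is a difference of 0.06, with other probes at 0.01 and -0.08. CTSH, an aminopeptidase, read 6359 against 6436, a difference of -0.02, with other probes at -0.05 and -0.23. On their brightest probes both arrays thus gave nearly the same level of these genes.

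Among the cysteine cathepsins, enzymes that cut proteins with an active-site cysteine, CTSB had -0.04 (4105 against 4223) and its 3 probes ran from -0.04 to 0.12. CTSC, which activates the serine proteases of neutrophil and cytotoxic granules, had 0.05 (1305 against 1261) and 0.02 on its other probe. Neither difference was larger than the SD over repeated spots of a bright probe. CTSZ, a carboxypeptidase, stood highest among the proteases at 0.17 (3366 against 2984), and its other probe gave 0.13. CTSZ thus read higher in low feed efficiency on both of its probes.

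CTSA, a serine carboxypeptidase that also shields NEU1 and GLB1 in a complex, read 4318 in low against 5397 in high feed efficiency, which is a difference of -0.32, and -0.16 on its other probe. Of all genes 25.1% lay at least as far from 0. Legumain (LGMN), which cuts after asparagine and matures other cathepsins, had -0.18 (805 against 913), and its 3 probes ran from -0.54 to -0.18. CTSA and legumain were lower in low feed efficiency on every measured probe. CTSA had -0.20 with quantile normalization and -0.17 in the authors' deposited table, and legumain -0.31 as the mean over probes.

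CTSW, a cathepsin of natural killer and cytotoxic T cells, had -0.16 (791 against 885), and its 4 probes lay between -0.27 and -0.16, but it had -0.02 with normexp on the pixel mean. Natural killer and cytotoxic cell markers also read lower: 9 of 10 measured markers lay below 0, with a median of -0.30 and a summed intensity of 17821 against 22496. NKG7, a granule protein of these cells, had -0.61 (572 against 872). The part of these markers in the CTSW value was not tested.

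TPP1 and CTSK, the 2 proteases past 1.5-fold, were dim. TPP1 removes tripeptides from the ends of proteins and read 31 in low against 56 in high feed efficiency, which is a difference of -0.83, while another probe read 31 against 41, a difference of -0.42. Its other probe was below background on both arrays. CTSK, known as the collagen-cutting protease of bone-resorbing osteoclasts, read 9.34 against 18, a difference of -0.95 from its 1 probe above background. Before scaling that probe read 11 in low feed efficiency, just past the background limit of 10.9, and the 2 other CTSK probes were not above background on either array. Normexp, a model-based background correction, was applied to the pixel mean in place of the pixel median, with an offset of 50. With it CTSK had -0.23 and TPP1 -0.45, neither of them 1.5-fold apart. The offset, added to every signal, by itself shrinks the differences of dim probes, so these values cannot decide the calls. With the pixel mean and no normexp CTSK had -0.75 and TPP1 -0.94. In the authors' deposited table CTSK had -1.07 and TPP1 -0.85. CTSL2, a cathepsin of the L family, was not above background on any of its 5 probes, which read at most 6 and 9 on the 2 arrays as scanned.

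**Figure D2:**
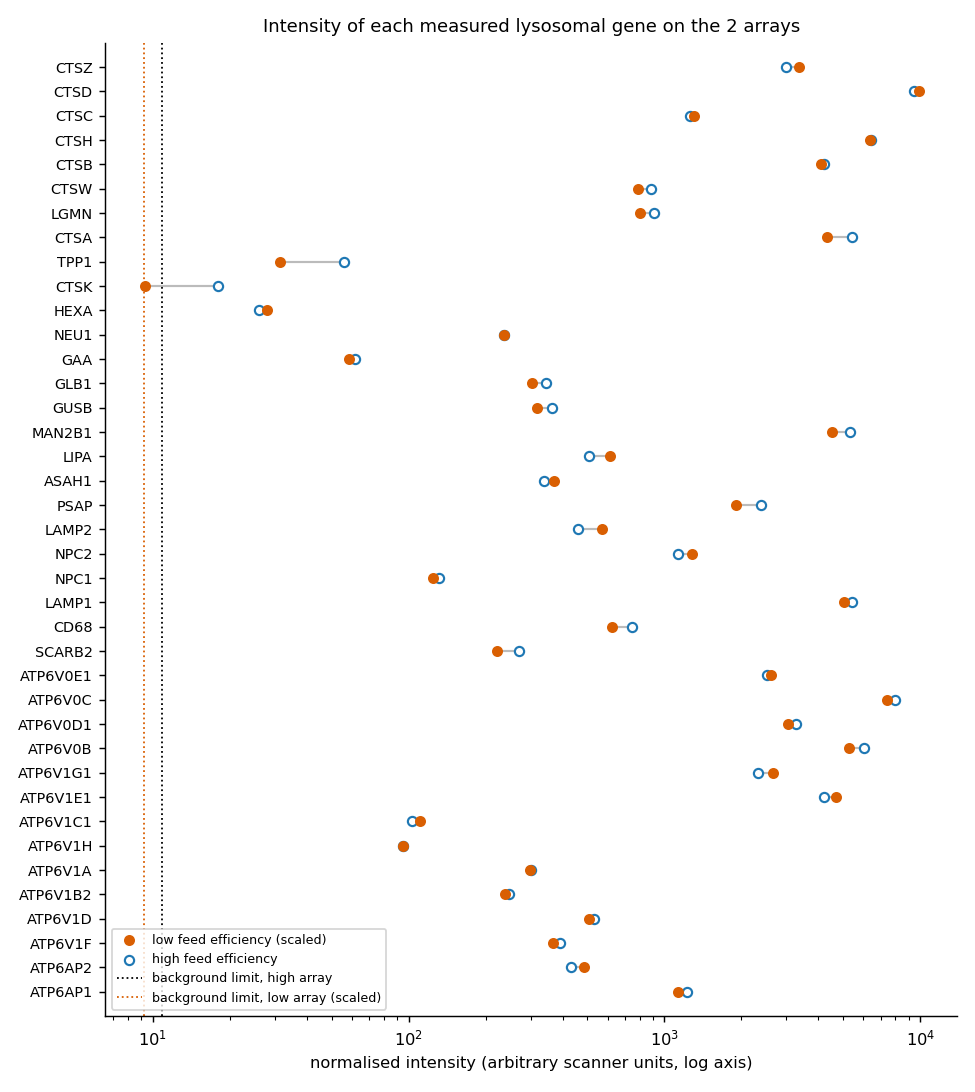
Normalised intensity (horizontal log axis, scanner units) of the 39 measured members on the low feed efficiency array (filled, scaled) and the high feed efficiency array (open), 1 line per gene, with the background limit of each array dotted. The pairs nearly overlap for most genes; CTSK lies at the background limit, and TPP1 shows the next widest gap, 31 against 56.

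Glycosidases, which trim sugars from glycoproteins, glycolipids and glycogen, lay near 0 or slightly below it. Of 7 members 6 were measured, 2 above and 4 below 0, with a median of -0.13 and a range from -0.24 to 0.11. MAN2B1, the lysosomal alpha-mannosidase, read 4522 in low against 5327 in high feed efficiency, which is a difference of -0.24, and its 3 probes spanned -0.30 to -0.24. All 3 MAN2B1 probes were lower in low feed efficiency although their intensities differed widely. The size depended on the processing: it was -0.10 with quantile normalization and -0.09 in the authors' deposited table.

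GUSB, which removes glucuronic acid, had -0.20 (317 against 363) on its brighter probe and 0.15 (105 against 95) on the other. The beta-galactosidase GLB1 had -0.19 (302 against 344) and 4 probes from -0.40 to 0.06. Probes of these 2 genes thus did not share a sign. The sialidase NEU1 had 0.01 (237 against 235) and 0.12 on its other probe. HEXA, a subunit of beta-hexosaminidase, had 0.11 at a low level of 28 against 26, and 0.35 on its other probe. GAA, which breaks down glycogen, had -0.08 (59 against 62), whereas its second probe read 10.2 against 21, a difference of -1.04 next to the background limit. GLA, the alpha-galactosidase, was not above background, with at most 7 and 10 as scanned.

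The 3 genes of lipid breakdown pointed different ways. LIPA, the acid lipase that frees cholesterol and fatty acids from lipoprotein esters, read 611 in low against 509 in high feed efficiency, which is a difference of 0.26. Its other probes gave 0.31, 0.64 and -0.35, a spread of 0.997 that was the widest among the members. Thus 3 of 4 LIPA probes were higher in low feed efficiency and 1 was lower.

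PSAP, the precursor of the saposins that present lipids to their enzymes, had -0.33 (1898 against 2394), and its second probe, at 59 against 75, gave -0.34. It was the lowest of the bright members, although 23.7% of all genes lay at least as far from 0, and it had -0.19 with normexp on the pixel mean. Acid ceramidase (ASAH1) had 0.12 (369 against 339) with other probes at -0.33 and 0.25. Its value turned to -0.33 when only spots flagged good by the scanner software were used, since the brightest probe was not flagged good on either array.

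Proteins of the lysosomal membrane and the cholesterol carriers split by gene. Of 7 members 6 were measured, 2 above and 4 below 0, with a median of -0.09. LAMP1 and LAMP2 are the main glycoproteins of the membrane, and LAMP2 also serves as a receptor in chaperone-mediated autophagy. LAMP1 read 5029 against 5398, a difference of -0.10, and its dimmer probe gave -0.26. LAMP2 had the highest value of all measured members, 0.31 (570 against 460), from a probe assigned to one RefSeq transcript. The 2 LAMP2 probes assigned to another transcript gave -0.06 (166 against 173) and 0.04 (115 against 112). As the mean over its probes LAMP2 had 0.09, and only 1 of its 3 probes stood apart from 0 by more than the SD over repeated spots of a bright probe.

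NPC2, the soluble carrier that binds cholesterol inside the lysosome, had 0.18 (1283 against 1135), with other probes at 0.13 and -0.15, and it ran from 0.05 as the mean over probes to 0.34 with normexp on the pixel mean. NPC1, the membrane protein that takes cholesterol from NPC2 for export, had -0.07 (125 against 131) and -0.10 on its other measured probe. The difference of NPC1 was no larger than the SD over repeated spots, and that of NPC2 was larger on its brightest probe. SCARB2, which carries glucocerebrosidase to the lysosome, had -0.28 (222 against 269) on its single probe and -0.18 with normexp on the pixel mean.

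CD68, a glycoprotein abundant in monocytes and macrophages, had -0.27 (622 against 749) and -0.12 on its second probe, and -0.12 with normexp on the pixel mean. Monocyte markers had a median of -0.08 over 13 of 15 measured, with 7 below and 6 above 0 and a summed intensity of 30797 against 33590. Among them CSF1R, the receptor for macrophage growth factor, was at least 1.5-fold lower, at -0.82 (1253 against 2214) on its brightest probe. Its 3 measured probes ran from -0.82 to -0.49, while CD14 had -0.08. Other monocyte markers read higher in low feed efficiency: LYZ had 0.35 (9653 against 7550, but -0.01 on its other probe) and MS4A7 0.30 (2110 against 1709). VCAN had 0.36 (40 against 31) and CCR2 0.27 (14 against 12), each on 1 dim probe. CCR2 lay near the background limit of 10.9, at 17 and 12 as scanned. The IgG receptor gene FCGR1A read 64 as scanned in low feed efficiency, and in high feed efficiency it was not above background, at 4. These 5 were named after their values were seen. The part of monocyte number in the CD68 value was not tested. CD63, a tetraspanin of late endosomes and granules, gave no value, because its 1 spot was bright on the low feed efficiency array but marked there as not found. With marked spots kept it read 1199 against 1235, a difference of -0.04.

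**Figure D3:**
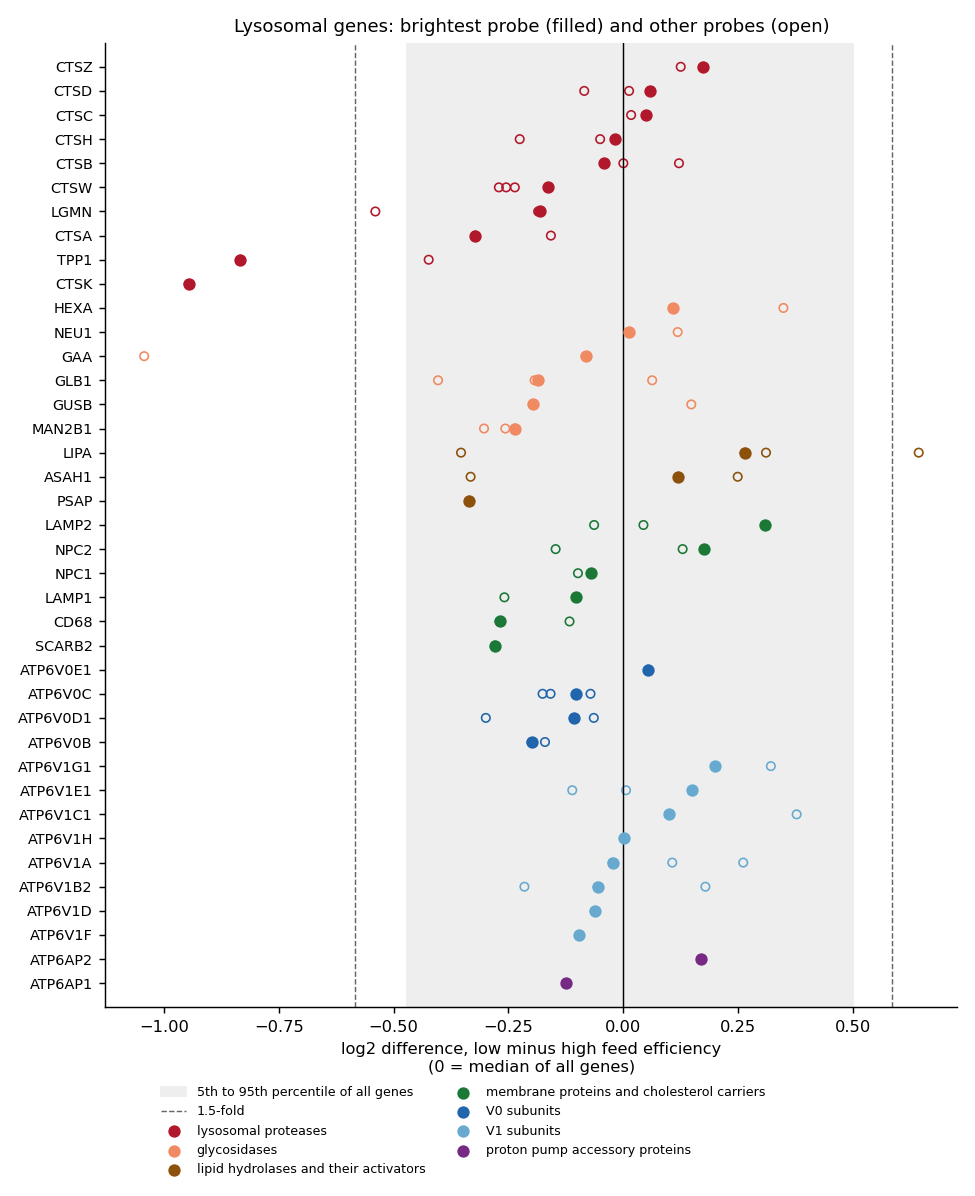
Log2 difference, low minus high, for each measured member, coloured by class, with the brightest probe filled and other measured probes open; the grey band covers the 5th to 95th percentile of all genes (-0.47 to 0.50) and dashed lines mark 1.5-fold. Only CTSK and TPP1 lie outside the band by their brightest probe, while single other probes of GAA, LGMN and LIPA also do.

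Genes of the proton pump stayed close to the median gene. Of 15 members 14 were measured, and each of the 14 lay between -0.20 and 0.20, with a median of -0.04, 8 below and 6 above 0. That bound is the largest difference in the pump itself, so all 14 had to lie within it. Within the same bound lay 53.4% of all genes and 59.1% of the brightest 25% of genes. Of the measured members outside the pump 64% did.

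Membrane subunits of the V0 part lay mostly below 0. ATP6V0C, which forms most of the proton-carrying ring, read 7432 in low against 7976 in high feed efficiency, which is a difference of -0.10, and its 4 probes ran from -0.18 to -0.07. ATP6V0B, a variant ring subunit, had -0.20 (5253 against 6032) with -0.17 on its other probe. ATP6V0D1, which joins the ring to the rotating stalk, had -0.11 (3039 against 3273), with 3 probes from -0.30 to -0.06. All 9 probes of these 3 genes were below 0, but the 3 are grouped here because their brightest probes lay below 0.

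ATP6V0E1, a small membrane subunit, was the exception in V0 at 0.06 (2622 against 2523), and ATP6V0A1, which forms the half-channels for protons, was not above background at 7 and 7 as scanned. With loess normalization, which removes a trend of the difference with signal, ATP6V0B had -0.11, ATP6V0C -0.01 and ATP6V0D1 -0.03, closer to 0, while ATP6V0E1 had 0.13, farther from it. ATP6V0C turned to 0.02 with normexp background correction of the pixel mean, and ATP6V0D1 to 0.01 with quantile normalization and in the authors' deposited table.

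Subunits of the V1 part were spread evenly around 0, 4 above and 4 below, with a median of -0.01. Of their 16 probes 10 lay above 0, whereas 1 of 10 probes did in V0. Probes of a gene are not replicates, and 9 of the V0 probes came from 3 genes. By gene, 1 of 4 measured V0 genes lay above 0. ATP6V1A and ATP6V1B2 form the ATP-splitting head, and had -0.02 (297 against 302) and -0.06 (239 against 248). Probes of both genes lay on both sides of 0. Among subunits of the stalks that hold the head in place, ATP6V1G1 had 0.20 (2661 against 2315) and 0.32 on its other probe. With the pixel mean in place of the pixel median ATP6V1G1 had -0.02. ATP6V1E1 had 0.15 (4665 against 4201), with other probes at 0.01 and -0.11, and ATP6V1C1 had 0.10 (110 against 103) and 0.38. ATP6V1C1 was dim, and its 0.10 was no larger than the SD of 0.23 over repeated spots of a dim probe.

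The rotor subunits ATP6V1D and ATP6V1F had -0.06 (509 against 531) and -0.10 (367 against 392), and ATP6V1H, a regulator of the pump, had 0.00 (95.1 against 95). These 3 values were no larger than the SD over repeated spots. The accessory proteins parted: ATP6AP1, which helps to assemble V0, had -0.12 (1129 against 1231), and ATP6AP2, also known as the prorenin receptor, had 0.17 (485 against 431).

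**Figure D4:**
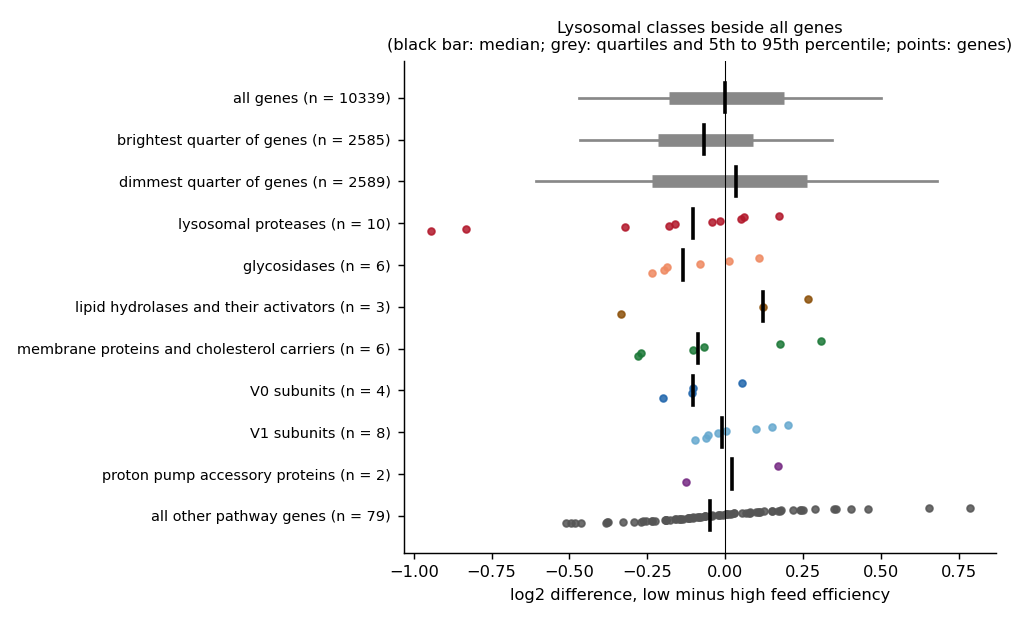
Log2 difference, low minus high, by class, with 1 point per measured gene and a black bar at the median; grey bars give the quartiles and the 5th to 95th percentile for all genes and for the brightest and dimmest 25%. V1 subunits lie between -0.10 and 0.20 and V0 subunits between -0.20 and 0.06, while the proteases reach down to -0.95.

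Several probes per gene measured most members. Of the 31 members with 2 or more measured probes, 20 (64.5%) had every probe on 1 side of 0, against 58.8% of the 4995 such genes overall. For 6 of them all probes lay above 0 (CTSC, CTSZ, HEXA, NEU1, ATP6V1C1 and ATP6V1G1). For 14 all lay below, among them CTSA, CTSW, LGMN, MAN2B1, PSAP, LAMP1, CD68 and the 3 V0 genes named above. Agreement of probes did not mean one sign under every processing. Of these 20 members 7 took the other sign under at least 1 alternative other than rescaling: ATP6V0C, ATP6V0D1, ATP6V1G1, CTSH, HEXA, LAMP1 and NEU1. Among the 39 measured members 14 took either sign, the other 7 being ASAH1, ATP6V0E1, ATP6V1A, ATP6V1B2, ATP6V1H, CTSB and CTSD. The median gap between the 2 brightest probes was 0.11 in members and 0.15 in all genes.

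Other genes of the lysosome, from 6 lists of enzymes, membrane proteins, pump isoforms, inhibitors and delivery factors, were read on the same arrays. Of 102 such genes 79 were measured, 33 above and 46 below 0, with a median of -0.05; 2 were at least 1.5-fold higher (3.29% of all genes) and none was 1.5-fold lower (2.62%). The fucosidase FUCA1 was higher in low feed efficiency at 0.66 (586 against 372), with 0.86 on its other probe. CD164, a sialomucin of endosomes and lysosomes, had 0.78 (419 against 243) on its single probe. These 2 were the genes past 1.5-fold.

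Medians of the lists were -0.10 for 7 other proteases, -0.09 for 26 other glycosidases, sulfatases and lipid hydrolases, and 0.01 for 15 other membrane proteins. They were -0.22 for 4 other pump genes, 0.07 for 5 inhibitors and -0.04 for 22 genes of delivery and transcription. Dim signal held for the pump genes ATP6V0A4 at -0.38 (50 against 65), ATP6V0E2 at -0.38 (71 against 93) and ATP6V1B1 at -0.06 (60 against 63). The bright pump gene TCIRG1 had 0.00 (774 against 773) and -0.41 on its other probe. TFEB, the transcription factor that switches on lysosomal genes, had -0.15 (920 against 1020), but its other probe gave 0.43. The cathepsin inhibitor cystatin C (CST3), chosen after its values were seen, had -0.51 (7541 against 10746) and -0.40 on its second probe.

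Blood cell markers, which check the labelled tissue, were present on both arrays. Measured were 11 of 15 neutrophil, 11 of 11 T cell, 9 of 10 B cell, 8 of 10 platelet, 6 of 10 erythroid and 4 of 8 eosinophil, basophil and mast cell markers. Their medians were 0.14 for neutrophil, -0.12 for T cell, -0.01 for B cell, 0.06 for platelet, 0.02 for erythroid and -0.20 for eosinophil, basophil and mast cell markers. Summed neutrophil intensities were 76488 against 66248. Past 1.5-fold, beside CSF1R and NKG7, were IL7R at 0.83 (37 against 21), ALAS2 at -1.38 (95 against 248) and CCR3 at -0.77 (128 against 218). Each of IL7R, ALAS2 and CCR3 had 1 measured probe, and that of IL7R was dim. The part of these cell types in the lysosomal values was not tested.

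**Figure D5:**
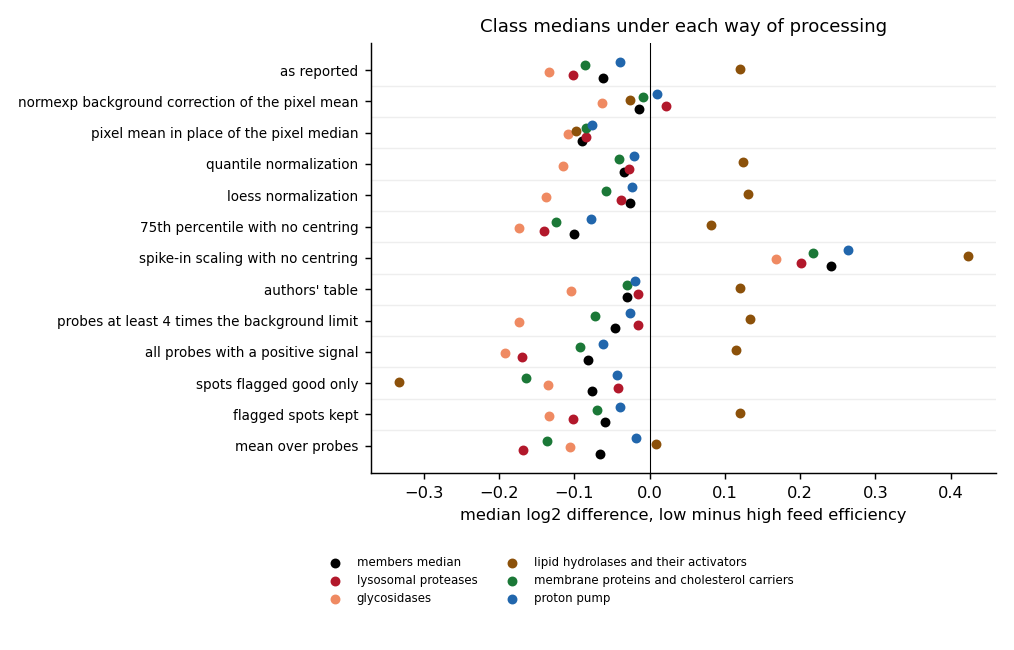
Median log2 difference of all measured members and of 5 classes (horizontal axis) under each way of processing (rows). Outside spike-in scaling, which moves every class above 0, the members' median stays between -0.10 and -0.01; the lipid class, with 3 genes, moves most.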

How the data were processed

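Cy3-labelled RNA of 2 whole blood specimens was read at 532 nm on an Agilent bovine array, 1 array per group. The deposited intensity is a spot's median pixel less a background taken from negative controls, written by GenePix Pro 6.1.0.4 per the file headers. The deposited files also give the percent of saturated pixels, 0 for member probes, and a flag score (100 good, 0 unflagged, -50 not found). Agilent Feature Extraction is the tool in the submitters' processing notes. The authors' deposited table holds log2 values; moving it by 1 row was needed to match the scanner ranks (as deposited, rho was 0.077 in low and 0.072 in high feed efficiency). No normalization of it is named in the sources used here.

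Control spots and 558 spots marked not found although bright were left out, which kept 43096 probes. Arrays were divided by their 75th percentile (98 in low, 81 in high feed efficiency), and differences were centred on the median gene. A probe counted as above background past the median of 153 negative controls plus 3 robust SDs. Genes were named through RefSeq transcripts and a gene table of assembly ARS-UCD2.0. Members, lists, classes and the rule for named genes (the extremes and the 2 brightest of each class, members 1.5-fold apart, members whose probes disagree) were chosen with earlier results of these data known. No test was possible with 1 array per group. Centring and the recovery of differences set for whole genes were checked on simulated data. Probes of a gene shared the same difference there, so the choice of probe was not tested. Alternatives used limma 3.58.1 (normexp of the pixel mean, offset 50) and statsmodels 0.14.6 (loess). A planned promoter search was not made.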

Additional observations from a re-analysis of the deposited data

How the results depend on the processing

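No paired analysis was possible because each group has 1 array, and for the same reason no replicate could be left out. Over the 10 alternatives other than pure rescaling and thresholds, 25 of 39 members kept their sign wherever measured (8 above and 17 below 0), 14 took either sign, and the members' median stayed between -0.09 and -0.01. Normexp was applied to the pixel mean, so it changed the spot summary too. With it the protease median became 0.0215. The median of the 3 lipid genes became -0.0259 with it, -0.10 with the pixel mean alone, -0.33 with spots flagged good and 0.00871 as the mean over probes. Members 1.5-fold lower numbered 0 with normexp of the pixel mean, 0 at 4 times the background limit and 0 at 2-fold. They numbered 1 with spots flagged good and 4 with all positive probes. At 4 times the limit 36 members were measured, without CTSK, TPP1 and HEXA, and with spots flagged good 38, without CTSK. Those counts thus fell because genes dropped out, not because their differences shrank. The normexp offset of 50 by itself shrinks differences of dim genes. Spike-in scaling gave 1 member 1.5-fold higher and 1 lower, 35 of 39 above 0, and medians of 0.24 for the members, 0.20 for proteases, 0.17 for glycosidases, 0.42 for lipid genes, 0.22 for membrane proteins and 0.26 for the pump. Over all genes, 340 higher and 271 lower at 1.5-fold became 101 and 91 with normexp of the pixel mean, 127 and 105 at 4 times the limit, 183 and 125 with spots flagged good, 1815 and 1658 with all positive probes, and 1680 and 78 with spike-in scaling. Signals near background, as for CTSK, HEXA and TPP1, limit what can be said of dim members.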
